A study of Mus musculus with 4 samples.

Results

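The genes described here are 10 members of the transforming growth factor beta (TGF-beta) pathway: the ligand Tgfb1, the receptors Tgfbr1, Tgfbr2 and Tgfbr3, the signal transducers Smad2, Smad3 and Smad4, the inhibitors Smad7 and Skil, and the target Tgfbi. They were chosen by name, as every probe set whose platform gene symbol is one of the 10. This gave 26 probe sets, in a table where 18193 genes have a probe set of their own. The series measured cultured mouse CD4 T cells from spleen and lymph nodes of C57BL/6 mice aged 8 to 10 weeks, with 1 Affymetrix array for each of 4 populations. The exFoxp3Th17 cells were Foxp3+ CD4 T cells at the start, were cultured in Th17 conditions and were sorted as IL-17+ Foxp3-. The Th17 cells were naive CD4 T cells cultured in Th17 conditions, and passed the same gate. The Treg cells were Foxp3+ CD4 T cells kept with IL-2 and sorted as IL-17- Foxp3+. The Th0 cells were naive CD4 T cells cultured in Th0 conditions, and were sorted as negative for both. IL-17 was read through GFP and Foxp3 through APC, and the labels give neither the cytokines of the Th0 and Th17 cultures nor how many animals gave cells.

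TGF-beta is a secreted protein that T cells and many other cells make in a latent form. Once released, it binds the type II receptor Tgfbr2, which activates the type I receptor Tgfbr1, and this kinase phosphorylates Smad2 and Smad3, which join Smad4 and act on genes in the nucleus. In CD4 T cells the pathway is known for inducing Foxp3 in naive cells and, together with inflammatory cytokines such as IL-6, for Th17 differentiation.

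The promoter windows of the 3 members that were higher in exFoxp3Th17 than in Th17 are shown so that the letters bound by Smad proteins can be seen. Each runs from 250 bases before to 50 bases after an annotated start, is 300 bases long and comes from RefSeq on build GRCm38.p6. Capitals mark CAGAC or its reverse complement GTCTG, the core of the CAGA box bound by Smad3 and Smad4. Tgfbr1 has 2 windows. The windows are chr13:56609336-56609635 (+ strand) for Tgfbi, chr9:116175314-116175613 (- strand) for Tgfbr2, and chr4:47352972-47353271 and chr4:47385966-47386265 (both + strand) for Tgfbr1.
Tgfbi: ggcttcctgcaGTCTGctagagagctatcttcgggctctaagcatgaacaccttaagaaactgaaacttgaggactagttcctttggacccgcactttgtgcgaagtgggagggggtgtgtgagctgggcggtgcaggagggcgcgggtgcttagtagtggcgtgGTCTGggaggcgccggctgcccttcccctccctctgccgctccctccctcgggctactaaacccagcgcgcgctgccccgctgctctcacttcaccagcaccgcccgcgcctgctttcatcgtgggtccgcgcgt
Tgfbr2: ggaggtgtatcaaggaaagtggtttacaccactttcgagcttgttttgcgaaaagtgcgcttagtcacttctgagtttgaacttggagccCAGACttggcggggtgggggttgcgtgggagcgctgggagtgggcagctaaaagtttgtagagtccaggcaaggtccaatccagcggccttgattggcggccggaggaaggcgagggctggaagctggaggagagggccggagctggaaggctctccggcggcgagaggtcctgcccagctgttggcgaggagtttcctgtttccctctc
Tgfbr1, first start: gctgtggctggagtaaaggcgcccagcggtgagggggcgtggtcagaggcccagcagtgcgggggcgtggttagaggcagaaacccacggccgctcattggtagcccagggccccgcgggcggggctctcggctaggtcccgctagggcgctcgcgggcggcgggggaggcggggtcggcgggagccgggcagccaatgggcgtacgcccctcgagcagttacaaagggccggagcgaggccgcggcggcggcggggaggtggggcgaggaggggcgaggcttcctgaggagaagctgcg
Tgfbr1, second start: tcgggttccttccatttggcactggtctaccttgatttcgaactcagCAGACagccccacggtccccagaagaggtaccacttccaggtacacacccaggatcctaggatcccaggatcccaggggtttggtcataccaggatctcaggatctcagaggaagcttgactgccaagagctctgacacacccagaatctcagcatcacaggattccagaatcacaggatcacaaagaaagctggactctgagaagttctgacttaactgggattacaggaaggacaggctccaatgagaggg
The Tgfbi window held the letters at 2 places, at positions -239 and -85 from the start. The Tgfbr2 window held them once, at -160, and the second Tgfbr1 window once, at -203. The first Tgfbr1 window held none. Among all 32851 promoter windows of this length, 49.6% held CAGAC on either strand, so its presence here was common. The 8-letter palindrome GTCTAGAC was in none of the 6 windows listed for Tgfb1, Tgfbr1, Tgfbr2, Smad3 and Tgfbi, and in 0.213% of all windows. The windows of Tgfb1 and Smad3 held no CAGAC.

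Values are MAS5 signals on a linear scale. Signals under 12.1, which is the median over every probe set that is no control and every array, were not read as a level and were raised to that floor. Calls of higher or lower needed a difference of at least 2-fold with the brighter array above the floor. Where the dimmer array was under it, the fold is given as "at least". With 1 array a population there is no spread between samples and no test. As a description of noise within arrays, the log2 ratios of 2 probe sets of the same gene differed with a robust SD of 0.41 to 0.50. The share of probe sets over the floor was 48.7% to 51.2% by array. All 8 measured CD4 T cell markers were above the floor on every array, and their summed signal was 14293 to 16374. Single markers differed: Cd4 was 2.03-fold higher in exFoxp3Th17 than in Treg and 2.27-fold lower in Treg than in Th0 (its other probe set was at log2 ratios of 0.18 and -0.47), and Thy1 was 2.65-fold lower in exFoxp3Th17 than in Treg. Foxp3 had a signal of 585 in Treg and was below the floor elsewhere. Il17a was below the floor on all 4 arrays, at 9.41 in exFoxp3Th17, 9.81 in Th17, 8.18 in Treg and 7.09 in Th0, so its transcript signal does not bear out the IL-17+ label of exFoxp3Th17 and Th17, and IL-17+ and IL-17- name the sort gates here. Xist was at 3766 in exFoxp3Th17 and at 7.73 in Th17, 10.8 in Treg and 7.41 in Th0, and the Y-linked Eif2s3y at 4.66 in exFoxp3Th17, against 876 in Th17, 654 in Treg and 747 in Th0. In every comparison with exFoxp3Th17, this difference in sex-linked transcripts and the population cannot be told apart.

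All 10 members had a probe set above the floor. For 9 of them the brightest one was above it on all 4 arrays, and for Tgfbi it was so in exFoxp3Th17 and Th17. Between the highest and the lowest array, 7 of the 10 differed by 2-fold or more. Among 11769 genes above the floor on an array, 35.4% did so. Smad2, Smad3 and Smad4 were the members that stayed within 2-fold. In RNA from whole populations, a lower level in each cell and fewer cells with the RNA cannot be told apart.

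**Figure D1:**
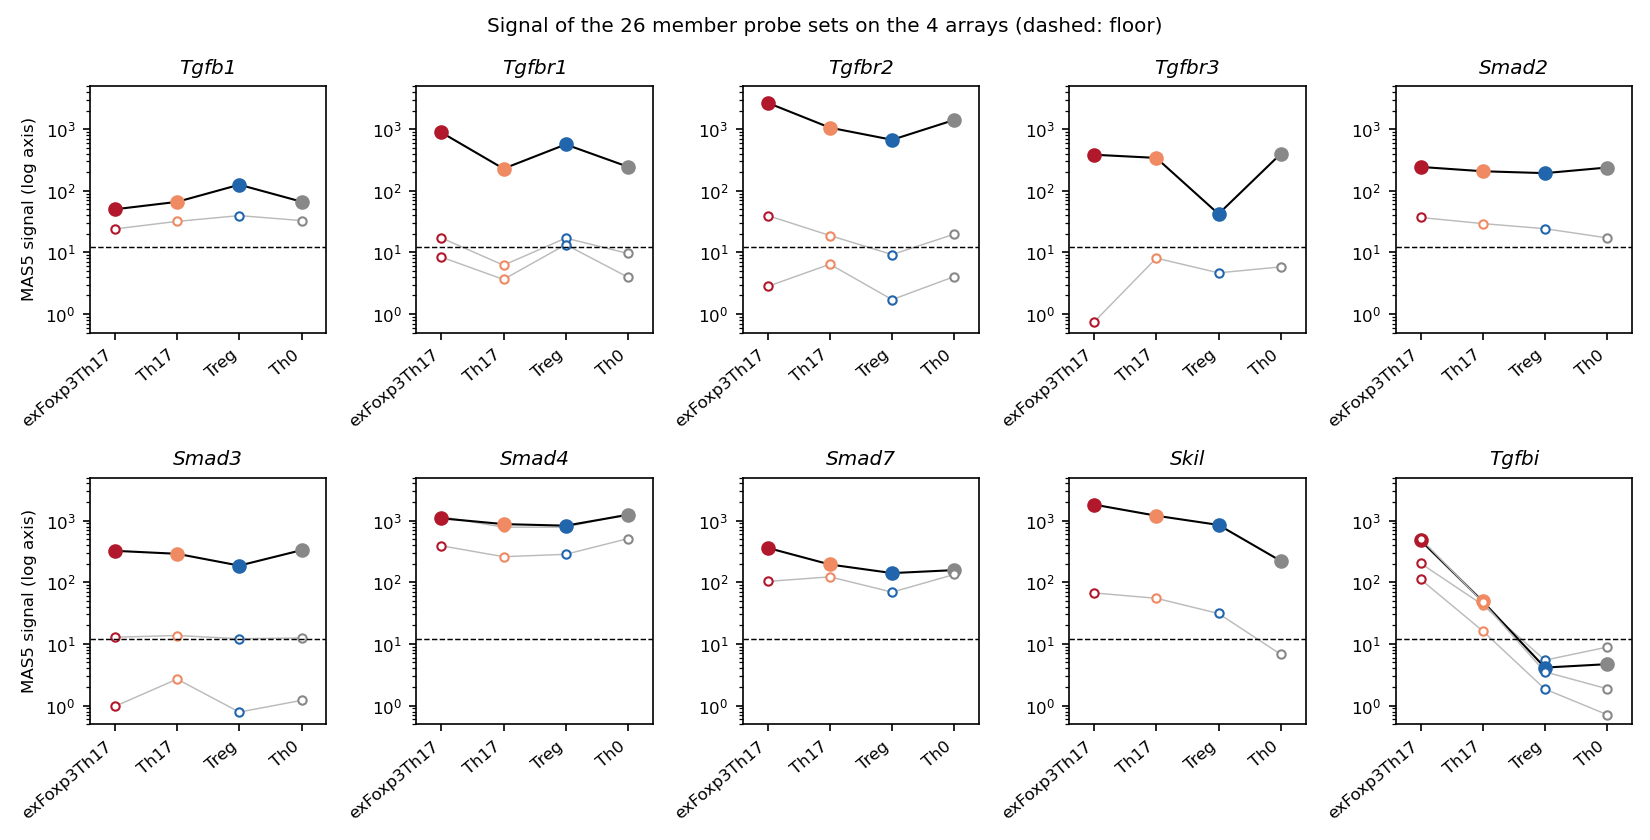
MAS5 signal (log axis) of the 26 member probe sets on the exFoxp3Th17, Th17, Treg and Th0 arrays, 1 panel a gene. Filled points joined in black are the brightest probe set of the gene, open points its others, and the dashed line is the floor of 12.1. Tgfbi stands at 479 in exFoxp3Th17 and below the floor in Treg and Th0, Tgfbr3 is low in Treg alone (42.0), and Skil is low in Th0 (222).

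The ligand gene Tgfb1, which encodes TGF-beta 1, had a signal of 50.01 in exFoxp3Th17, 66.0 in Th17, 125 in Treg and 66.5 in Th0. Treg stood highest, while Th17 and Th0 were almost level and exFoxp3Th17 was lowest. It was 2.50-fold lower in exFoxp3Th17 than in Treg, a log2 ratio of -1.32, and its difference between Treg and Th0 stayed under 2-fold (1.88-fold higher in Treg). Its other probe set gave the same order with smaller steps, at 24.0 in exFoxp3Th17, 31.8 in Th17, 39.5 in Treg and 32.8 in Th0, and was 1.64-fold lower in exFoxp3Th17 than in Treg.

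The receptors each had a pattern of their own. Tgfbr1, the type I receptor kinase also called ALK5, had a signal of 883 in exFoxp3Th17, 228 in Th17, 564 in Treg and 245 in Th0. Both populations of Foxp3+ origin were thus above both of naive origin, whichever way they had been cultured. Tgfbr1 was 3.87-fold higher in exFoxp3Th17 than in Th17 and 2.30-fold higher in Treg than in Th0. It differed by 1.57-fold between exFoxp3Th17 and Treg and by 1.07-fold between Th17 and Th0. Its other probe sets were dim. One was at 17.2 in exFoxp3Th17 and 17.1 in Treg and below the floor in Th17 (6.20) and Th0 (9.60), and the other reached 13.4 in Treg and was below the floor on the 3 other arrays. Neither differed by 2-fold between any arrays compared, once values were held at the floor.

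Tgfbr2, the type II receptor that binds the ligand first, had a signal of 2666 in exFoxp3Th17, 1055 in Th17, 670.1 in Treg and 1409 in Th0. It was 2.53-fold higher in exFoxp3Th17 than in Th17 and 3.98-fold higher in exFoxp3Th17 than in Treg, while it was 2.10-fold lower in Treg than in Th0. Th17 and Th0 differed by 1.34-fold. A second probe set followed the same order, at 39.6 in exFoxp3Th17, 18.8 in Th17, 9.22 in Treg and 19.8 in Th0, and was 2.11-fold higher in exFoxp3Th17 than in Th17. Its remaining probe set was below the floor on all 4 arrays.

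Tgfbr3, or betaglycan, is a co-receptor that presents TGF-beta to the type II receptor. Its signal was 384 in exFoxp3Th17, 341 in Th17, 42.0 in Treg and 397 in Th0. Treg alone was low and the other arrays lay within 1.16-fold of each other. Tgfbr3 was 9.14-fold higher in exFoxp3Th17 than in Treg and 9.44-fold lower in Treg than in Th0. Only 1 of its 2 probe sets was above the floor, so a second probe set offers no check.

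The receptor-regulated Smads differed little. Smad2 had a signal of 243 in exFoxp3Th17, 207 in Th17, 193 in Treg and 238 in Th0, and the highest array was 1.26-fold above the lowest. Its second probe set, dimmer, was at 36.8 in exFoxp3Th17, 29.3 in Th17, 24.2 in Treg and 17.2 in Th0. The 2 probe sets disagreed in sign for Th17 over Th0 (log2 ratios of -0.20 and 0.77) and for Treg over Th0 (-0.30 and 0.49). Smad3 was at 323 in exFoxp3Th17, 289 in Th17, 186 in Treg and 332 in Th0. It was lowest in Treg, 1.74-fold below exFoxp3Th17 and 1.78-fold below Th0, neither of which reached 2-fold. A second Smad3 probe set lay just above the floor on all 4 arrays, at 12.1 to 13.7, and the remaining one was below it on all 4.

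Smad4, the common partner of the receptor-regulated Smads, had a signal of 1089 in exFoxp3Th17, 877 in Th17, 827 in Treg and 1241 in Th0. All 3 of its probe sets were above the floor on every array and highest in Th0. They were 1.41-fold to 1.96-fold lower in Th17 than in Th0, and had log2 ratios of 0.31 to 0.59 for exFoxp3Th17 over Th17. None reached 2-fold in a comparison.

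The inhibitors followed different courses. Smad7 blocks the type I receptor and recruits ubiquitin ligases to it, and its own gene is a target of the pathway. Its signal was 361 in exFoxp3Th17, 194 in Th17, 141 in Treg and 157 in Th0. exFoxp3Th17 stood above the others, by 2.56-fold over Treg and by 1.86-fold over Th17, which fell short of a call. The second probe set did not follow, at 103 in exFoxp3Th17, 122 in Th17, 69.1 in Treg and 134 in Th0. It was 1.49-fold higher in exFoxp3Th17 than in Treg and had a log2 ratio of -0.24 for exFoxp3Th17 over Th17, against 0.90 for the brighter one. With the probe sets averaged, Smad7 had a log2 ratio of 0.97 for exFoxp3Th17 over Treg, short of 2-fold.

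Skil encodes SnoN, a co-repressor that binds Smads on DNA and is itself induced by TGF-beta. Its signal was 1816 in exFoxp3Th17, 1199 in Th17, 850.4 in Treg and 222 in Th0, so Th0 stood apart below the rest. Skil was 5.41-fold higher in Th17 than in Th0, 3.84-fold higher in Treg than in Th0 and 2.14-fold higher in exFoxp3Th17 than in Treg. Its second probe set had the same order, at 67.1 in exFoxp3Th17, 54.9 in Th17, 31.1 in Treg and 6.77 in Th0, and both were called in the same 3 comparisons.

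Tgfbi encodes a secreted matrix protein named for its induction by TGF-beta. Its brightest probe set was at 479 in exFoxp3Th17 and 49.0 in Th17, and below the floor in Treg (4.13) and Th0 (4.69). The gene was thus read in the populations labelled IL-17+ and not in those labelled IL-17-. It was 9.78-fold higher in exFoxp3Th17 than in Th17, at least 39.6-fold higher in exFoxp3Th17 than in Treg and at least 4.05-fold higher in Th17 than in Th0. All 4 of its probe sets gave exFoxp3Th17 as highest and Th17 next. Over these 4, the difference between exFoxp3Th17 and Th17 was 4.74-fold to 10.7-fold, and that between exFoxp3Th17 and Treg was at least 9.24-fold to at least 42.3-fold. Between Th17 and Th0, 3 of them were called, and the fourth was at 16.2 in Th17 (at least 1.34-fold).

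Tgfbi is also strongly expressed by macrophages. Of 7 myeloid markers, 2 were above the floor on any array. Csf1r was at 12.6 in exFoxp3Th17, 17.5 in Th17, 16.8 in Treg and 23.4 in Th0, and Adgre1 was above the floor in Treg (12.8) and Th0 (32.2) only. The sum over all 7, most of it from signals under the floor in exFoxp3Th17 and Th17, was 37.9 in exFoxp3Th17, 43.5 in Th17, 53.5 in Treg and 82.4 in Th0. Lyz2, Itgam, Cd14, S100a8 and S100a9 were below the floor on all 4 arrays. Of 5 stromal and endothelial markers, the collagen genes Col1a1 and Col3a1 and Dcn were below the floor throughout, and Col1a2 reached 12.4 in Th17 alone. The adhesion molecule gene Pecam1, which some T cells express, was at 192 in exFoxp3Th17, 79.8 in Th17, 46.9 in Treg and 94.9 in Th0. Of 3 platelet markers, Pf4 and Ppbp were below the floor on every array, and Itga2b was above it on all, at 43.7 in exFoxp3Th17, 20.0 in Th17, 39.1 in Treg and 44.4 in Th0, which made it 2.19-fold higher in exFoxp3Th17 than in Th17 and 2.22-fold lower in Th17 than in Th0. Among B cell markers Cd79b reached 55.6 in Treg, while Cd79a and Ms4a1 were below the floor on every array. Cd8b1, a CD8 T cell marker, was at 64.9 in exFoxp3Th17, 83.5 in Th17, 51.7 in Treg and 64.6 in Th0. Cd8a was above the floor in Th17 (13.5) and Treg (14.3) only. Of the NK cell markers, Ncr1 was below the floor on every array. Klrk1 was above it in Th17 (32.2) and Treg (14.1) only, at least 2.66-fold higher in Th17 than in Th0 and in exFoxp3Th17. The part of Csf1r, Adgre1, Pecam1, Itga2b, Cd79b, Cd8a, Cd8b1 and Klrk1 in the results on members was not tested.

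Set against Th17, which has the same culture condition and gate but another origin, exFoxp3Th17 cells had 3 members higher, none lower and 7 neither. The 3 were Tgfbr1, Tgfbr2 and Tgfbi. Among all 11769 genes, 7.48% were called higher and 7.27% lower. The median log2 ratio of the members was 0.46, against 0.03 over all genes, and 9 of the 10 were above 0, with Tgfb1 the exception. When all probe sets of a gene were averaged, the dim ones included, Tgfbr1 (log2 ratio 0.82) and Tgfbr2 (0.81) no longer reached 2-fold. At the level of probe sets, 7 of the 23 members' probe sets above the floor on an array were higher and none lower, where 7.23% of all such probe sets were called higher and 6.68% lower. These 7 were all of Tgfbr1, Tgfbr2 and Tgfbi and included every Tgfbi probe set, so they repeat genes.

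Set against Th0, Th17 cells had 2 members higher, Skil and Tgfbi, none lower and 8 neither, where 8.22% of all genes were called higher and 6.88% lower. The median of the members was -0.15, against -0.02 over all genes. None of the receptors or Smads reached 2-fold by its brightest probe set, and 5 of the 23 probe sets were higher and none lower, where 7.6% of all were higher and 7.54% lower. All 5 were of Skil or Tgfbi. Log2 ratios of the receptors were -0.10 for Tgfbr1, -0.42 for Tgfbr2 and -0.22 for Tgfbr3.

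Set against Treg, the other population of Foxp3+ origin, exFoxp3Th17 cells had 5 members higher, 1 lower and 4 neither. Tgfbr2, Tgfbr3, Smad7, Skil and Tgfbi were the higher ones and Tgfb1 the lower one. Of all genes, 11.3% were called higher and 9.94% lower. The median log2 ratio of the members was 0.95, against 0.02 over all genes, and Tgfb1 was again the only member below 0. By probe set, 10 of the 23 were higher and 1 lower, where 10.8% of all were higher and 9.19% lower. These 10 repeat genes: they included every Tgfbi probe set and more than 1 each of Tgfbr2 and Skil. The exFoxp3Th17 array is the one also set against Th17.

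Set against Th0, Treg cells had 2 members higher, Tgfbr1 and Skil, 2 lower, Tgfbr2 and Tgfbr3, and 6 neither, where 5.56% of all genes were called higher and 4.95% lower. The median was -0.23, against -0.01 over all genes. By probe set, 3 of the 23 were higher and 2 lower, where 4.82% of all were higher and 5.34% lower. The 3 higher ones were of Tgfbr1 and Skil. The receptors therefore split, with log2 ratios of 1.20 for Tgfbr1, -1.07 for Tgfbr2 and -3.24 for Tgfbr3. With averaged probe sets Tgfbr1 (0.61) and Tgfbr2 (-0.59) no longer reached 2-fold, nor did Tgfbr2 with equal array medians (-0.99). The Th0 array also served for Th17, and the Treg array for exFoxp3Th17.

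**Figure D2:**
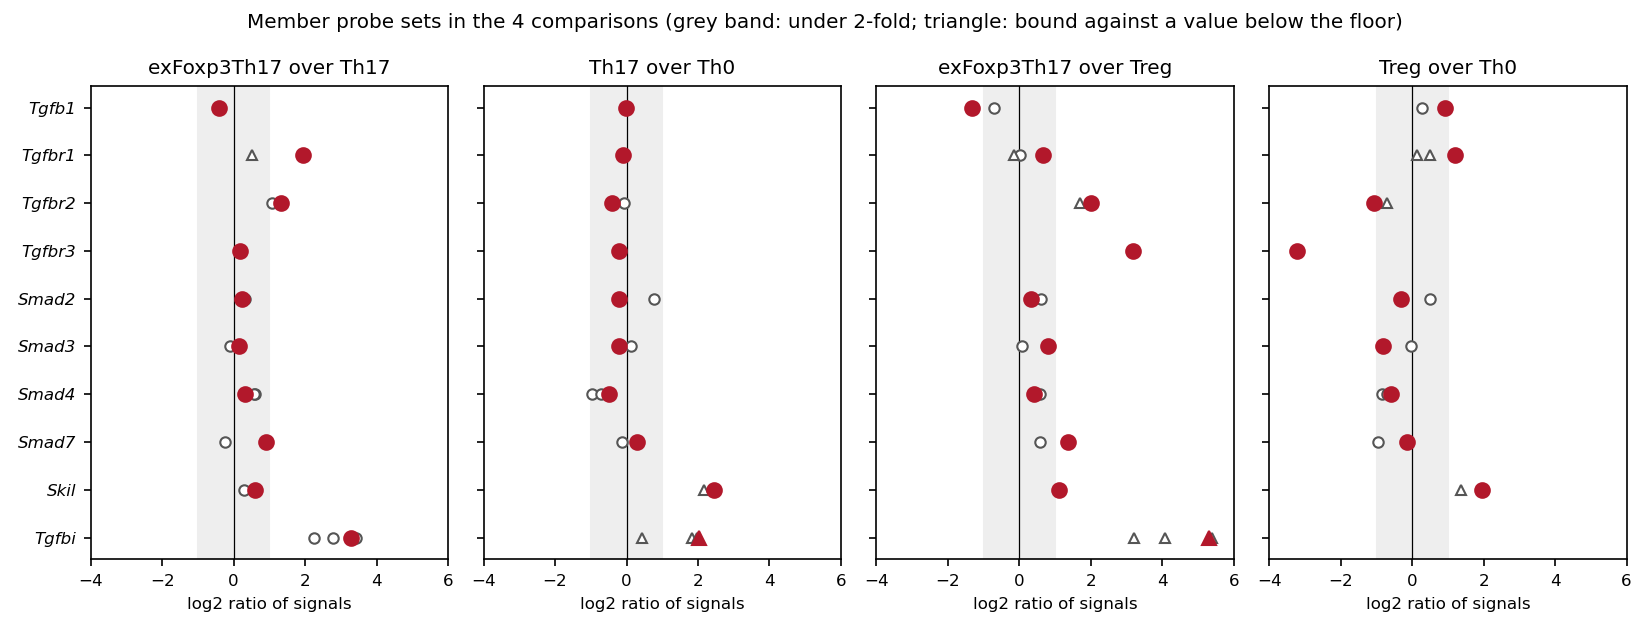
Log2 ratio of signals (x axis) for each member gene (y axis) in the 4 comparisons of 2 arrays. Filled red marks are the brightest probe set and open marks the others, triangles are bounds against a value below the floor, pairs both below the floor are not drawn, and the grey band covers differences under 2-fold. Tgfbi lies farthest to the right for exFoxp3Th17 over Treg, and Tgfbr3 farthest to the left for Treg over Th0 (-3.24).

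Patterns over the 4 arrays were then counted for all 11769 genes, a step added after the values were seen. Of 12 patterns counted, 5 held a member. Tgfbr1 was 2-fold or more above both naive-derived arrays on both arrays of Foxp3+ origin, which held for 29 genes, or 0.246%. Tgfbr3 was 2-fold or more lower in Treg than on each of the other arrays, which held for 77 genes, or 0.654%. Skil was 2-fold or more lower in Th0 than on each of the others, as were 219 genes, or 1.86%. Tgfbi was 2-fold or more higher in exFoxp3Th17 than on each of the others, as were 400 genes, or 3.4%. It was also 2-fold or more higher on both arrays labelled IL-17+ than on both labelled IL-17-, as were 205 genes, or 1.74%. No 2 of these 4 members shared a pattern.

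The genes with the closest profiles were found by Euclidean distance between log2 signals over the 4 arrays, each gene centred on its own mean, among 8454 genes with a signal of 48.4 or more on an array. With 4 arrays many genes can be close, and closeness describes these arrays only. For Tgfbr1 the 3 closest were Gpr155 at a distance of 0.20, Litaf at 0.22 and the sorting receptor gene Sorl1 at 0.36. Litaf was at 477 in exFoxp3Th17, 101 in Th17, 298 in Treg and 120 in Th0, which repeats the higher level in both populations of Foxp3+ origin. For Tgfbr2 they were Pecam1 at 0.12, the pyrophosphate transporter gene Ank at 0.16 and Tcp11l2 at 0.17.

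For Tgfbr3 the closest genes were the T cell receptor gamma variable gene Trgv4 at 0.34, Ccdc22 at 0.61 and the transcription regulator Aff3 at 0.70. Aff3 was at 988 in exFoxp3Th17, 659 in Th17, 118 in Treg and 603 in Th0, so it too was low in Treg. For Skil they were the elongation factor gene Ell2 at 0.17, Itpripl2 at 0.23 and Scamp1 at 0.26. For Tgfbi they were the IL-17 family receptor gene Il17re at 0.59, Sestd1 at 0.61 and the lectin receptor gene Klrb1f at 0.67. Tgfb1 lay closest to Tex2 (0.048), the calpain gene Capn2 (0.15) and Chac2 (0.19), and Smad7 to Cplane1 (0.054), Zfp251 (0.057) and Tia1 (0.065).

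**Figure D3:**
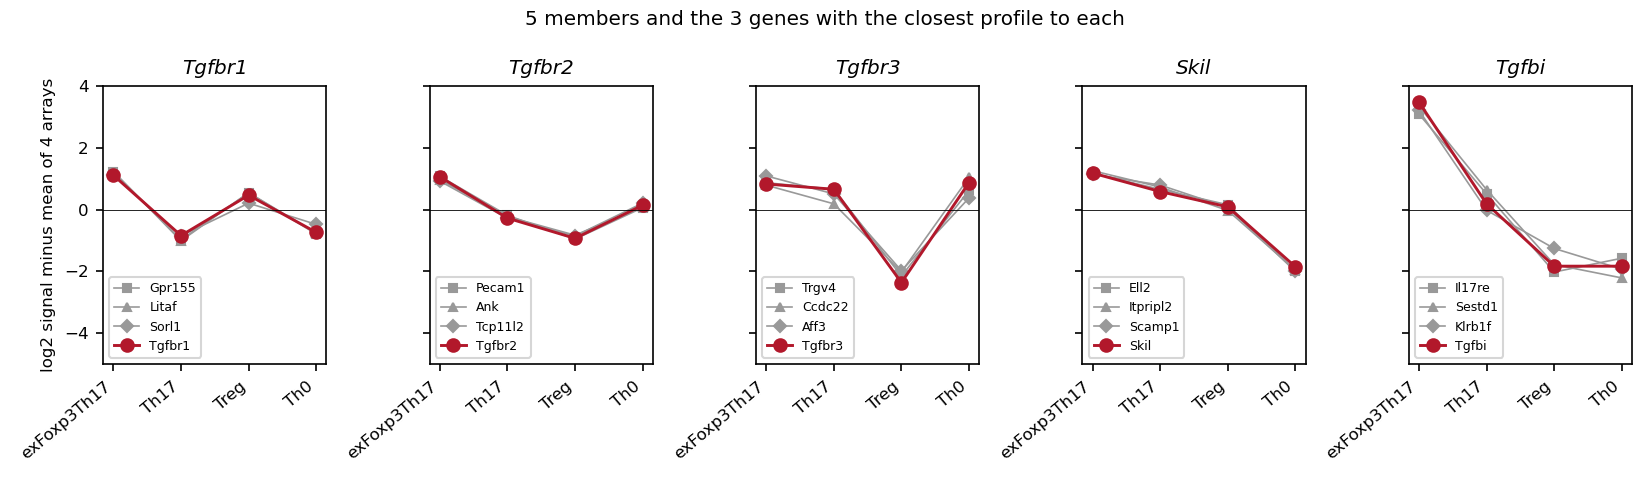
Log2 signal minus the gene's mean over the 4 arrays (y axis) for Tgfbr1, Tgfbr2, Tgfbr3, Skil and Tgfbi (red circles) and the 3 genes closest to each (grey), on the exFoxp3Th17, Th17, Treg and Th0 arrays, with values below the floor set to it. The Tgfbr3 panel drops in Treg alone, and the Skil panel is lowest in Th0.

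Other genes of the pathway were read from 7 lists holding 104 genes, of which 102 have a probe set of their own here and 84 were above the floor on an array. Of the 84, exFoxp3Th17 had 9 higher and 11 lower relative to Th17, where 7.48% of all genes were higher and 7.27% lower. Th17 had 26 higher and 6 lower relative to Th0, where the shares of all genes were 8.22% and 6.88%. The counts were 16 higher and 5 lower for exFoxp3Th17 against Treg (11.3% and 9.94% of all genes), and 19 higher and 3 lower for Treg against Th0 (5.56% and 4.95%).

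Genes known to be induced by TGF-beta had 14 of 20 higher, 1 lower and 5 neither in Th17 than in Th0, with a median log2 ratio of 2.01. Over all genes 8.22% were higher and 6.88% lower, at a median of -0.02. The list was chosen with earlier results of these data known. Whether these cells responded to TGF-beta was not tested. Gpr15, a homing receptor of T cells, was at least 95.9-fold higher, Timp1, an inhibitor of metalloproteases, at least 80.3-fold, and Pmepa1, a membrane protein that sequesters Smads, 10.1-fold (609.5 in Th17 and 60.2 in Th0). The other 2 probe sets of Pmepa1 had log2 ratios of 1.00 and 2.92, against 3.34 for this one. Id3, a partner and inhibitor of E proteins, was the lower one (5.80-fold, 62.8 in Th17 and 364 in Th0). In Treg, 13 of the 20 were higher than in Th0, none lower and 7 neither (median 1.484), where 5.56% of all genes were higher and 4.95% lower at a median of -0.01. The list was led by Itgae, the CD103 integrin chain, at least 31.8-fold higher (384 in Treg and 8.32 in Th0). Skil, itself such a gene, was also higher in both.

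Between exFoxp3Th17 and Th17, 5 of the 20 were called higher and 4 lower, 11 being neither, at a median of 0.25, where 7.48% of all genes were higher and 7.27% lower at a median of 0.03. The higher ones were Itgae (27.8-fold), the G protein regulator Rgs16 (at least 11.3-fold, 137 in exFoxp3Th17 and 10.03 in Th17, its other probe sets at log2 ratios of 0.94 and 3.01), Ldlrad4, a relative of Pmepa1 (5.48-fold, 442 and 80.6), Id3 (2.91-fold) and the repressor Tgif1 (2.44-fold). The lower ones were Timp1 (17.3-fold, 56.1 in exFoxp3Th17 and 972 in Th17), the cell cycle inhibitor gene Cdkn1a (9.46-fold), Id1 (at least 4.49-fold) and Jun (2.54-fold). Against Treg, 8 of 20 genes were higher in exFoxp3Th17, 2 were lower and 10 were neither, at a median of 0.54. Over all genes 11.3% were higher and 9.94% lower, at a median of 0.02. The higher ones included Gpr15 (17.9-fold), Ldlrad4 (7.32-fold), Timp1 (at least 4.64-fold), Tgif1 (3.41-fold) and Pmepa1 (3.27-fold). The lower ones were Cdkn1a (5.64-fold) and Cdkn2b (at least 2.75-fold).

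Repressors, ubiquitin ligases and phosphatases of the pathway had 18 genes above the floor, 4 of which (Ski, Tgif1, Pmepa1 and Ldlrad4) are also on the list of induced genes. In exFoxp3Th17, 2 were higher than in Th17, Ldlrad4 and Tgif1, 15 neither, and 1 lower, shares near those of all genes (7.48% higher and 7.27% lower). The lower one was Fkbp1a, whose product binds the type I receptor (2.43-fold, 1576 in exFoxp3Th17 and 3835 in Th17). Against Treg, exFoxp3Th17 had 4 higher, none lower and 14 neither, where 11.3% of all genes were higher and 9.94% lower, and the 4 were those on both lists. Ski, a co-repressor related to Skil, was among them (3.05-fold, 779.8 in exFoxp3Th17, 256 in Treg). Th17 had 4 higher and 1 lower than Th0 (8.22% and 6.88% of all genes), with Nedd4l, a ubiquitin ligase that acts on Smads, 3.51-fold lower. Treg had 3 higher and 1 lower than Th0 (5.56% and 4.95% of all genes), again with Nedd4l lower (2.05-fold, its other probe set at a log2 ratio of -0.72).

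**Figure D4:**
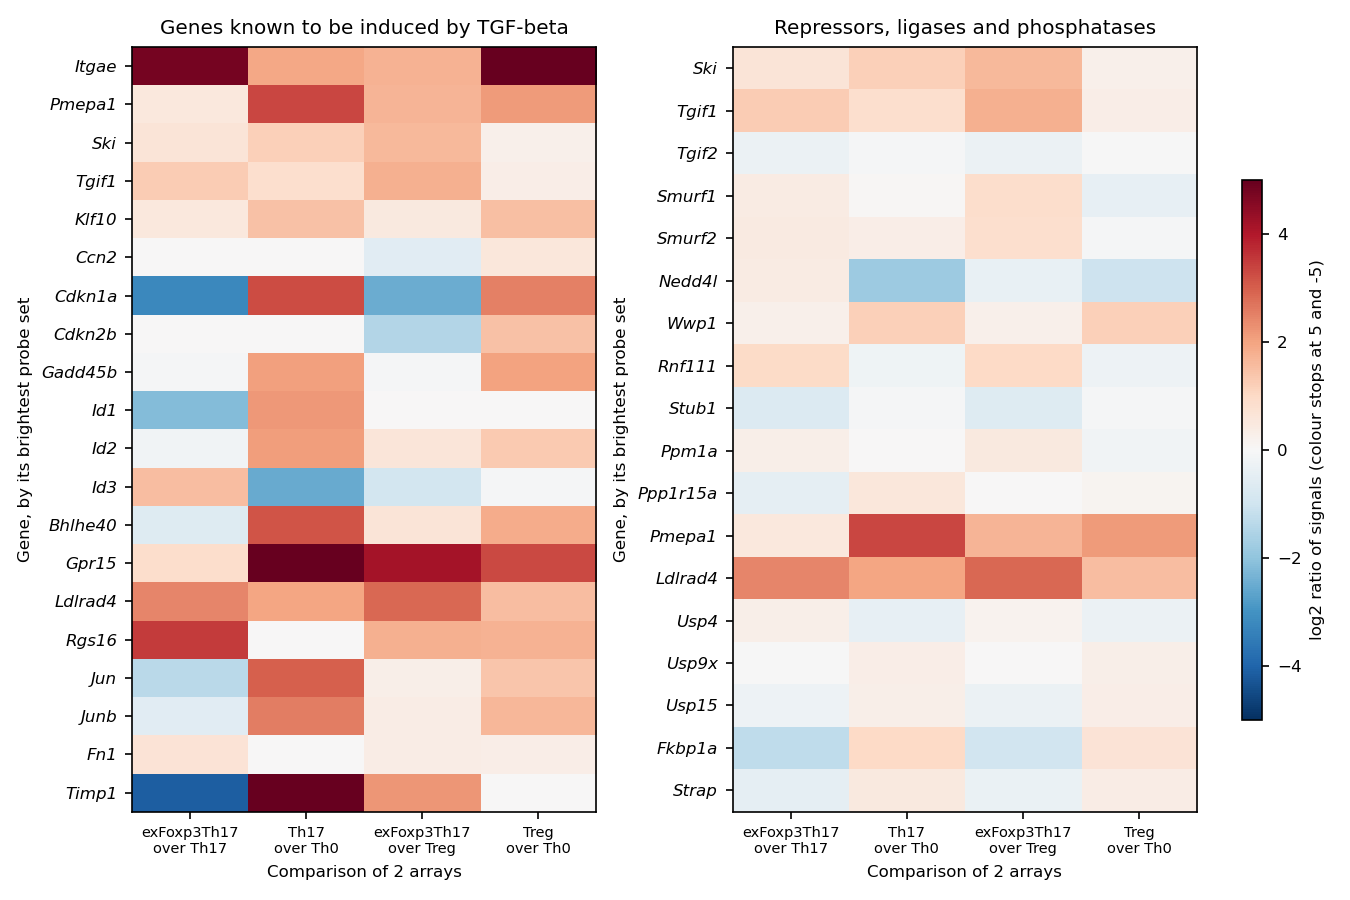
Log2 ratio of signals, as colour, for genes known to be induced by TGF-beta (left) and for repressors, ligases and phosphatases of the pathway (right), in the 4 comparisons of 2 arrays, with values below the floor set to it. Red is higher and blue lower in the population named first. The left panel is mostly red for Th17 over Th0 (14 of 20 higher) and mixed for exFoxp3Th17 over Th17 (5 higher, 4 lower).

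Of the genes that hold, cleave or release the latent ligand, 8 were above the floor. Lrrc32, also on this list, has no probe set of its own here, so it was not read. Itgb8, whose protein pairs with the integrin chain Itgav to free TGF-beta, was at 14.3 in exFoxp3Th17, 2.69 in Th17, 71.0 in Treg and 3.02 in Th0, which made it 4.95-fold lower in exFoxp3Th17 than in Treg. Nrros, which anchors latent TGF-beta on cells, was 4.37-fold lower in Th17 than in Th0 and 2.19-fold lower in exFoxp3Th17 than in Treg. Furin, the protease that cuts the precursor, was 4.73-fold higher in Th17 than in Th0 (399.7 in Th17 and 84.5 in Th0) and 2.35-fold lower in exFoxp3Th17 than in Th17. Tgfb3, a further ligand, was read in Th17 alone (75.4). In this list no gene was higher and 2 were lower in exFoxp3Th17 than in Th17 (7.48% and 7.27% of all genes), and likewise against Treg (11.3% and 9.94%). Relative to Th0, 2 were higher and 1 lower in Th17 (8.22% and 6.88% of all genes), and likewise in Treg (5.56% and 4.95%).

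Receptors for activins and bone morphogenetic proteins (BMPs), with co-receptors, had 9 genes above the floor. In Th17, 4 were higher than in Th0 and none lower, where 8.22% of all genes were higher and 6.88% lower, with the type I receptors Acvr1 (5.53-fold) and Bmpr1a (4.27-fold) leading. The other probe set of Acvr1 was at a log2 ratio of 0.10, and those of Bmpr1a spanned 0.06 to 2.28. Bmpr2, a type II receptor, was at 533 in exFoxp3Th17, 266 in Th17, 149 in Treg and 78.8 in Th0. Its other probe set did not repeat this order, with a log2 ratio of -0.14 for Treg over Th0 (0.92 for the brightest). It was at 0.66 for exFoxp3Th17 over Th17, 1.67 for exFoxp3Th17 over Treg and 0.87 for Th17 over Th0. Acvr2a, a type II activin receptor, was 4.47-fold higher in exFoxp3Th17 than in Treg, and Acvrl1 3.35-fold lower. In that comparison 2 of the list were higher, 1 lower and 6 neither (11.3% of all genes higher and 9.94% lower). Treg had 2 higher and none lower than Th0 (5.56% and 4.95%). Against Th17, exFoxp3Th17 had 2 higher and 2 lower (7.48% and 7.27% of all genes).

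Other Smads and Smad partners had 12 genes above the floor. In exFoxp3Th17, 1 was higher and 1 lower than in Th17 (7.48% and 7.27% of all genes). Against Treg, exFoxp3Th17 had 3 higher and none lower (11.3% and 9.94% of all genes). In Th17, 1 was higher and 1 lower than in Th0 (8.22% and 6.88%). Treg had none higher and none lower than Th0 (5.56% and 4.95%). Smad6, the inhibitory Smad of the BMP branch, was at 70.2 in exFoxp3Th17 and below the floor in Th17 (10.5), Treg (5.25) and Th0 (5.84). Smad1, a BMP-regulated Smad, was 2.31-fold higher in exFoxp3Th17 than in Treg (438 in exFoxp3Th17 and 189 in Treg), its other probe sets at log2 ratios of 0.76 and 1.24. Runx3, a partner of Smads in T cells, was 2.22-fold lower in exFoxp3Th17 than in Th17 and 2.50-fold higher in Th17 than in Th0. Runx1 was 2.02-fold higher in exFoxp3Th17 than in Treg, its other probe sets at log2 ratios of 0.003 to 1.73. Smad5 was 2.01-fold lower in Th17 than in Th0, its other probe sets at log2 ratios of -0.76 and -0.01. In the list of non-Smad signalling, 15 genes were above the floor. In exFoxp3Th17, 1 was higher and none lower than in Th17 (7.48% and 7.27% of all genes). Against Treg, exFoxp3Th17 had 3 higher and none lower (11.3% and 9.94%). In Th17, 3 were higher and 1 lower than in Th0 (8.22% and 6.88%). Treg had 1 higher and 1 lower than Th0 (5.56% and 4.95%). The kinase gene Mapk8 was 3.36-fold higher in exFoxp3Th17 than in Th17, although its 3 other probe sets reached a log2 ratio of only 0.36 to 0.82. Map3k7, the kinase TAK1, was 2.68-fold higher in Th17 than in Th0, with its other probe sets at -0.31 to 1.95. The 3 genes higher in exFoxp3Th17 than in Treg were Map2k6 (4.24-fold), Mapk8 (2.59-fold) and Mapk14 (2.36-fold). Map2k6 was at 55.0 in exFoxp3Th17 and, just above the floor, at 13.0 in Treg, with no other probe set above the floor on these arrays. In that comparison the other probe sets were at log2 ratios of 0.50 to 0.82 for Mapk8 and 0.51 to 1.62 for Mapk14.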

How the data were processed

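RNA from 4 populations of cultured and sorted mouse CD4 T cells was measured on 4 arrays, 1 for each. The deposited table gives 1 intensity a probe set, unlogged, made by the authors with MAS5 from 1 µg of total RNA, per the labels and the submitters' processing notes. MAS5 turns the probes of a probe set into 1 signal and scales each array. Without the lowest and highest 2% of probe sets, each array had a mean of 100.001, so the scaling was kept. The table holds 45101 probe sets, 64 of them controls. Gene symbols came from the platform's annotation and were updated through the gene identifier in RefSeq. A single symbol was listed for 34945 probe sets, and the 932 listed with several were used to name no gene. A gene was represented by its probe set with the highest mean log2 signal. The members, lists and comparisons were chosen with earlier results of these data known. The rule for naming took all members with every probe set, up to 4 called genes of each list for each comparison and direction, and the 3 closest profiles of each called member. Marker genes are named besides. Calling was tested on simulated data. The alternatives were 0.5 and 2 times the floor, the floor as a pseudocount, quantile normalization, equal medians, averaging over probe sets of a gene, and 3-fold. Depth does not apply to arrays; their number limits the precision. Python 3.11.15, numpy 2.4.6 and pandas 2.3.3 were used.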

Additional observations from a re-analysis of the deposited data

How the results depend on the processing

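No paired analysis was possible because each population has 1 array, so no array could be left out either. Of 15 calls on members, 8 held under all 7 alternatives: Tgfbr2 between exFoxp3Th17 and Treg, Tgfbr3 in both of its comparisons, Skil against Th0 in Th17 and in Treg, and Tgfbi in all 3 of its comparisons. The changed floors could not alter the calls of Tgfbr2, Tgfbr3 and Skil. Their brightest probe sets were above 24.2, which is 2 times the floor, on every array. No member ratio changed sign past a call. With probe sets averaged by gene, in which dim probe sets held at the floor enter, 1 member was higher in exFoxp3Th17 than in Th17 (Tgfbi), with log2 ratios of 0.82 for Tgfbr1 and 0.81 for Tgfbr2, and for Treg against Th0 1 was higher (Skil) and 1 lower (Tgfbr3). At 3-fold, 3 members were higher (Tgfbr2, Tgfbr3 and Tgfbi) and 0 lower in exFoxp3Th17 than in Treg, and for Treg against Th0 again 1 was higher and 1 lower. With equal medians 1 member was lower in Treg than in Th0 (Tgfbr3), Tgfbr2 being at -0.99. Tgfb1 reached 2-fold between Treg and Th0 with quantile normalization (log2 ratio 1.04) and with equal medians (1.00). Over all genes, 0.5 times the floor gave 1221 genes lower in Th17 than in Th0, against 810, and 888 lower in Treg than in Th0, against 582. At 3-fold the counts were 304 higher and 341 lower for exFoxp3Th17 against Th17, 475 and 275 for Th17 against Th0, 555 and 539 for exFoxp3Th17 against Treg, and 301 and 169 for Treg against Th0.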

Other observations

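Other ligands and secreted inhibitors of the superfamily were mostly not read in these cells: 6 of 14 were above the floor on any array. Inha, the inhibin alpha chain, was at 10.3 in exFoxp3Th17, 48.0 in Th17, 10.7 in Treg and 8.77 in Th0, so it was read in Th17 alone. It was at least 3.96-fold lower in exFoxp3Th17 than in Th17 and at least 3.96-fold higher in Th17 than in Th0. Bmp7 was at least 2.03-fold lower in Th17 (5.19) than in Th0 (24.5), its other probe set above the floor at a log2 ratio of -0.11. Fst, which encodes the activin-binding protein follistatin, was at 23.5 in exFoxp3Th17 and below the floor in Th17, Treg and Th0. This brightest probe set was just short of a call, at a log2 ratio of 0.96 over Th17 and over Treg. Its other probe set reached 2-fold, at 1.03 over each. Fst is named after its values were seen.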
